A study of Homo sapiens with 10 samples.

Results

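The subunits of activator protein 1 (AP-1) were examined in human melanoma cell lines that had become resistant to combined BRAF and MEK inhibition. The 10 genes JUN, JUNB, JUND, FOS, FOSB, FOSL1, FOSL2, ATF3, JDP2 and BATF3 were taken by gene symbol, out of 57955 genes in the files. All 10 were matched, and all 10 passed the filter on low counts that left 17287 genes for testing.

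AP-1 is a transcription factor made of 2 leucine zipper proteins, most often a JUN protein bound to a FOS or ATF protein, which binds short palindromic DNA elements. Several of its genes are immediate early genes, switched on within minutes of a stimulus, and the ERK and JNK kinases act on both the genes and the proteins. In melanoma, where mutant BRAF drives ERK constantly, FOSL1 (FRA1) is a well known ERK-dependent member, while JUN is known from cells that have lost melanocytic features.

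RNA was sequenced from 5 BRAF V600E lines, WM983A, WM278 and WM902B from primary tumours and WM983B and WM1617 from metastases, once in the sensitive state and once in the resistant state. WM983A and WM983B came from the same patient, as did WM278 and WM1617, so the 5 lines are not fully independent. The sensitive lines were grown without drug, whereas the resistant lines (E+BRes) were selected over 3 to 5 months in encorafenib, a BRAF inhibitor, plus binimetinib, a MEK inhibitor, from 1 nM up to 200 nM, and were kept in both drugs. Every group thus holds 5 libraries, 1 per line, and resistance cannot be told apart from the presence of drug. All lines grew in the same serum-containing medium, and it is not stated whether a resistant line is 1 clone.

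The libraries held 13693922 to 18033247 counts. Levels are given as CPM, counts scaled per library by TMM to a common total, in the order WM983A, WM983B, WM278, WM1617, WM902B. The resistant WM983A library stood apart, since its profile over all genes tested correlated at r = 0.827 with sensitive WM983A and at 0.845 with sensitive WM902B, while the other 4 resistant libraries were closest to their own line. The edgeR calls are therefore also given without WM983A, while the DESeq2 and permutation counts and those over all 5 lines include it. Of the melanocyte lineage markers, the transcription factor SOX10 was at 307 to 344 CPM in the 5 sensitive libraries. In the resistant libraries SOX10 was at 6.45, 12.6, 274, 338 and 0.677 CPM, so it was low in WM983A, WM983B and WM902B and near its sensitive level in WM278 and WM1617. MITF, the master regulator of the lineage, was at 385, 264, 10.7, 627 and 402 CPM in the sensitive libraries and at 34.3, 36.9, 14.5, 528 and 220 CPM in the resistant ones. The leukocyte marker PTPRC was at 0.357 CPM or less throughout. The epithelial genes CDH1 and EPCAM reached 60 and 11.1 CPM in the resistant WM983A library only, where the 4 keratinocyte markers summed to 72 CPM against 1.51 or less in the other 9 libraries. The part of these markers in the subunit values was not tested.

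Stretches of 5 promoters are shown because their genes span the responses described further on, from FOS and JUN, whose ratios differed most in WM278, to JUNB and JUND. Of the 10 genes, 8 had an entry in the RefSeq promoter table (build GRCh38.p14), and FOSL1 and BATF3 had none. Sequences run 5′ to 3′ on the strand of the gene, and capitals mark matches to the motifs TGACGT (the core of a cyclic AMP response element), TGACATCA and TTACCTCA (JUN-type AP-1 elements) and TATAAA, which TBP binds. The windows lie at chr14:75278728-75278822 (plus strand), chr19:45467896-45467990 (plus strand), chr1:58784053-58784247 (minus strand), chr19:18281628-18281832 (minus strand) and chr19:12791386-12791480 (plus strand), and each ends 6 bases before the start of transcription.
FOS: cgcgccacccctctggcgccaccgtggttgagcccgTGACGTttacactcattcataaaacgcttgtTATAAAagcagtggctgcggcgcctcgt
FOSB: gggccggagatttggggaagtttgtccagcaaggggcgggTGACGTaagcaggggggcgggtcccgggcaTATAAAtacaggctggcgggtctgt
JUN: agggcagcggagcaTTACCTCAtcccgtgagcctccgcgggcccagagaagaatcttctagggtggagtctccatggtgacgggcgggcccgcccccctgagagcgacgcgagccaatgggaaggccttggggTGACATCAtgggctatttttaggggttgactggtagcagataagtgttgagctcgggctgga
JUND: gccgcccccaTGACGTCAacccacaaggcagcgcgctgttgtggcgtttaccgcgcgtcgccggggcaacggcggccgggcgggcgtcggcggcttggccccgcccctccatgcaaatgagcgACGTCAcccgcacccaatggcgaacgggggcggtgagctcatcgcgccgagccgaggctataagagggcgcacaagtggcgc
JUNB: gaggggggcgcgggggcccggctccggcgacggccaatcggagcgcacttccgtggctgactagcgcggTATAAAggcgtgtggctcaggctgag

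FOS and FOSB shared an arrangement, with TGACGT 64 and 60 bases and TATAAA 33 and 30 bases before the start. JUN instead held TGACATCA 67 bases and TTACCTCA 186 bases before the start. JUND held TGACGT 87 bases before the start on the reverse strand and, 200 bases before it, the palindrome TGACGTCA, which is read on both strands and overlaps itself. Among promoters not printed, FOSL2 held TGACGT at 66 bases, 1 JDP2 promoter held it at 97 bases, and ATF3 held TGACATCA at 123 bases. In the 250 bases before the start of all 35116 promoters of the table, searched on both strands, TGACGT was found in 7.1%, TGACATCA in 2.37%, TTACCTCA in 0.644% and TATAAA in 10.7%. The AP-1 consensus TGANTCA (6.57% of promoters) and the CArG box bound by SRF (1.16%) had no match in the 250 bases searched for these genes. Sites further upstream were outside this search, so their absence from the promoters of FOS or the others cannot be read from it. A match describes the letters only.

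Comparing 5 resistant with 5 sensitive libraries, 7 of the 10 subunits rose at least 2-fold with p no larger than 0.05 before adjustment (quasi-likelihood test of edgeR): JUNB, JUND, FOS, FOSB, FOSL2, ATF3 and JDP2. Over all genes tested, 3.53% met this rule upward. None of the 10 met it downward, where the share of all genes was 0.879%. The median log2 fold change was 1.72 over the subunits and 0.03 over all genes tested. After Benjamini-Hochberg adjustment edgeR called 0 subunits and 0% of all genes, and the 7 genes had an adjusted p of 0.63. DESeq2 called 3 subunits after adjustment (JUNB, FOS and JDP2) upward beside 0.515% of genes, and 0 downward beside 0.0983%. With cell line as a block, edgeR called 8 at unadjusted p, adding JUN, beside 3.48% of genes, and 0 downward beside 2.05%. DESeq2 with the block called 6 after adjustment (JUN, JUNB, JUND, FOS, FOSB and JDP2) beside 1.56% of genes, and 0 downward beside 1.38%. Without WM983A, the same 7 genes were called by edgeR, and 5 (JUN, JUNB, JUND, FOSB and JDP2) with the block. Several of these genes belong to a list that the study drew from these very libraries, so the count is not independent evidence of its direction. Reads from whole cultures cannot tell fewer cells with a transcript from less transcript per cell.

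**Figure D1:**
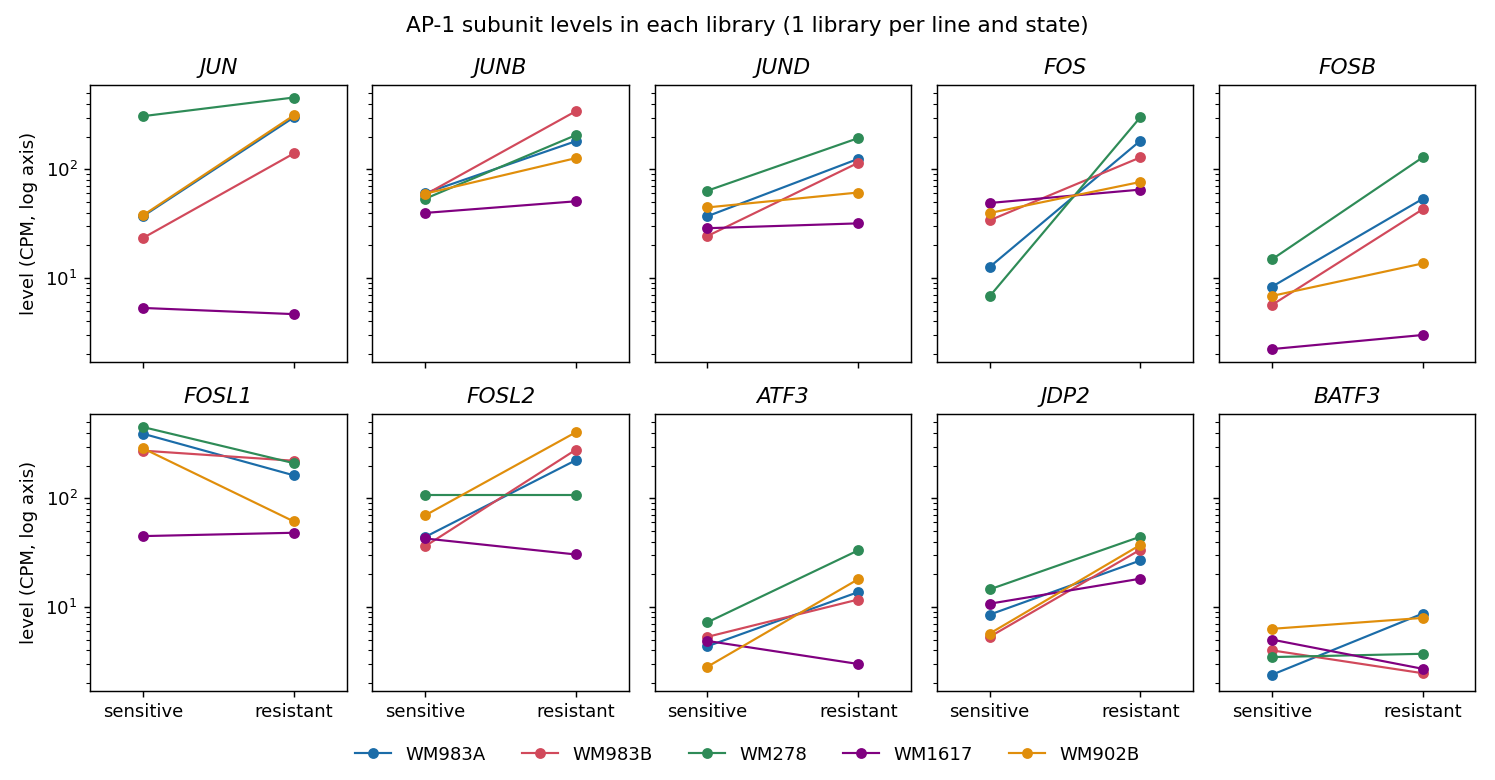
Level of each subunit in CPM (log axis, the same range in every panel) in the sensitive and resistant library of each line, with 1 point per library and a line joining the pair. FOS and JDP2 are the subunits whose 5 resistant libraries all lie above all 5 sensitive ones, FOSL1 is lower in 4 lines, and the WM1617 pair is nearly level in most panels.

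JUN (chr1:58776845-58784048, minus strand, GRCh38), the founding JUN protein and the main substrate of JNK, was at 37, 23.3, 309, 5.29 and 37.7 CPM in the sensitive libraries. The resistant libraries gave 301, 140, 459, 4.64 and 314 CPM. Sensitive WM278 was as high as the resistant lines and both WM1617 libraries were far below all others, so the groups overlapped. JUN did not pass the test across libraries (log2 fold change 1.56, SE 1.13, edgeR p = 0.197, exact permutation p = 0.262). With the block it passed at an unadjusted p (1.87, SE 0.591, edgeR adjusted p = 0.461). Within lines JUN was 8.13-fold, 5.99-fold and 8.32-fold higher in resistant WM983A, WM983B and WM902B. The ratio was 1.48-fold in WM278 and 0.879-fold in WM1617, where its counting interval held no change.

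JUNB (chr19:12791486-12793315, plus strand), a JUN protein with weaker transactivation that can oppose JUN, was at 60.3, 58.5, 53.6, 39.7 and 59.7 CPM in the sensitive libraries. Resistant libraries stood at 182, 344, 207, 50.8 and 127 CPM. The sensitive libraries were close to each other, and the resistant WM1617 library alone lay within their range. JUNB rose 3.35-fold (log2 fold change 1.74, SE 0.419, edgeR p = 0.00174, exact permutation p = 0.0397, DESeq2 adjusted p = 0.0275). It shares 259 exonic bases with the antisense gene HOOK2, which held at most 616 counts in a library. Since it is not stated whether counting used strand, reads of the shared bases cannot be assigned to either gene.

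JUND (chr19:18279694-18281622, minus strand), the JUN protein usually present in resting cells, was at 37, 24.3, 63.6, 28.7 and 44.6 CPM in the sensitive libraries. The resistant libraries gave 125, 115, 194, 31.8 and 61.2 CPM. WM1617 and WM902B kept the groups from separating. JUND rose 2.66-fold (log2 fold change 1.41, SE 0.458, edgeR p = 0.011, exact permutation p = 0.0556), with 3.05-fold to 4.71-fold ratios in WM983A, WM983B and WM278, 1.37-fold in WM902B and 1.11-fold in WM1617.

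FOS (chr14:75278826-75282230, plus strand), the classical immediate early partner of JUN, was at 12.6, 33.9, 6.77, 49 and 39.6 CPM in the sensitive libraries. In the resistant libraries it was at 184, 129, 303, 65.1 and 76.6 CPM. Every resistant library was above every sensitive one, which held for FOS and JDP2 among the subunits and, upward, for 0.445% of all genes tested, while no subunit had all resistant libraries lower, as 0.318% of genes did. FOS rose 5.34-fold (log2 fold change 2.42, SE 0.606, edgeR p = 0.00231, DESeq2 adjusted p = 0.0195), and the exact permutation test over all 252 ways of dividing them 5 against 5 gave p = 0.00794, the smallest it can give. The 44.3-fold ratio in WM278 (log2 ratio 5.47, 95% counting interval 5.21 to 5.77) was the largest of any subunit in any line. The order of the lines turned over: sensitive WM278 had the least FOS and resistant WM278 the most, while WM1617 went from the most to the least.

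FOSB (chr19:45467995-45475179, plus strand), a FOS protein known for its long-lived truncated form, was at 8.29, 5.63, 14.8, 2.21 and 6.82 CPM in the sensitive libraries. After selection the levels were 53.5, 42.9, 129, 2.98 and 13.6 CPM. The first 3 lines were clear of the sensitive range, WM902B stayed inside it and WM1617 was lowest in both states. FOSB rose 6.41-fold (log2 fold change 2.68, SE 0.856, edgeR p = 0.01, exact permutation p = 0.0873).

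FOSL1 (chr11:65892049-65900573, minus strand), a FOS-related protein without a transactivation domain that ERK keeps stable, was at 394, 275, 454, 44.9 and 289 CPM in the sensitive libraries. In the resistant libraries it was at 163, 222, 211, 48.2 and 61.3 CPM. FOSL1 was lower in 4 of 5 lines, which it shared with 24.4% of all genes tested, and it was the one subunit with that pattern. It did not pass the test (log2 fold change -1.05, SE 0.599, edgeR p = 0.109, exact permutation p = 0.206), and with the block its log2 fold change of -0.96 (SE 0.357) was under the 2-fold limit. The log2 ratios were -1.27, -0.31, -1.11, 0.10 and -2.24, and the counting interval of WM1617 alone held 0.

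FOSL2 (chr2:28392448-28417317, plus strand), the closely related FRA2, was at 44.1, 36.2, 108, 42.7 and 69.7 CPM in the sensitive libraries. Resistant lines had 225, 281, 108, 30.4 and 407 CPM. The 3 lines with over 5-fold more JUN also had over 5-fold more FOSL2, while WM278 was level and WM1617 lower. FOSL2 rose 3.49-fold (log2 fold change 1.80, SE 0.597, edgeR p = 0.0122, exact permutation p = 0.0873), and the call was lost without WM983B (log2 fold change 1.53) or without WM902B (1.49).

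ATF3 (chr1:212565334-212620777, plus strand), a stress-induced member that acts as a repressor as a homodimer, was at 4.34, 5.3, 7.21, 4.86 and 2.81 CPM in the sensitive libraries. Levels in the resistant libraries were 13.7, 11.7, 33.2, 2.98 and 18 CPM. In 4 lines the resistant library was above all sensitive libraries, and resistant WM1617 was near the bottom of their range. ATF3 rose 3.24-fold (log2 fold change 1.70, SE 0.539, edgeR p = 0.00979, exact permutation p = 0.0556).

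JDP2 (chr14:75427716-75474111, plus strand), a repressor that dimerises with JUN, was at 8.49, 5.3, 14.5, 10.7 and 5.68 CPM in the sensitive libraries. The resistant libraries gave 26.8, 33.7, 44.4, 18.2 and 37.3 CPM. The groups did not overlap, and WM1617 took part, with a ratio of 1.7-fold. JDP2 rose 3.59-fold (log2 fold change 1.84, SE 0.358, edgeR p = 0.000364, DESeq2 adjusted p = 0.00219, exact permutation p = 0.00794). It shares 26 bases with an antisense RNA that held at most 36 counts.

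BATF3 (chr1:212686417-212699840, minus strand), best known from dendritic cells, was at 2.37, 3.98, 3.45, 5 and 6.28 CPM in the sensitive libraries. Resistant lines had 8.68, 2.45, 3.7, 2.69 and 7.92 CPM. Levels were low and mixed in direction, and the log2 fold change of 0.27 (SE 0.448, exact permutation p = 0.738) turned to -0.16 without WM983A.

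**Figure D2:**
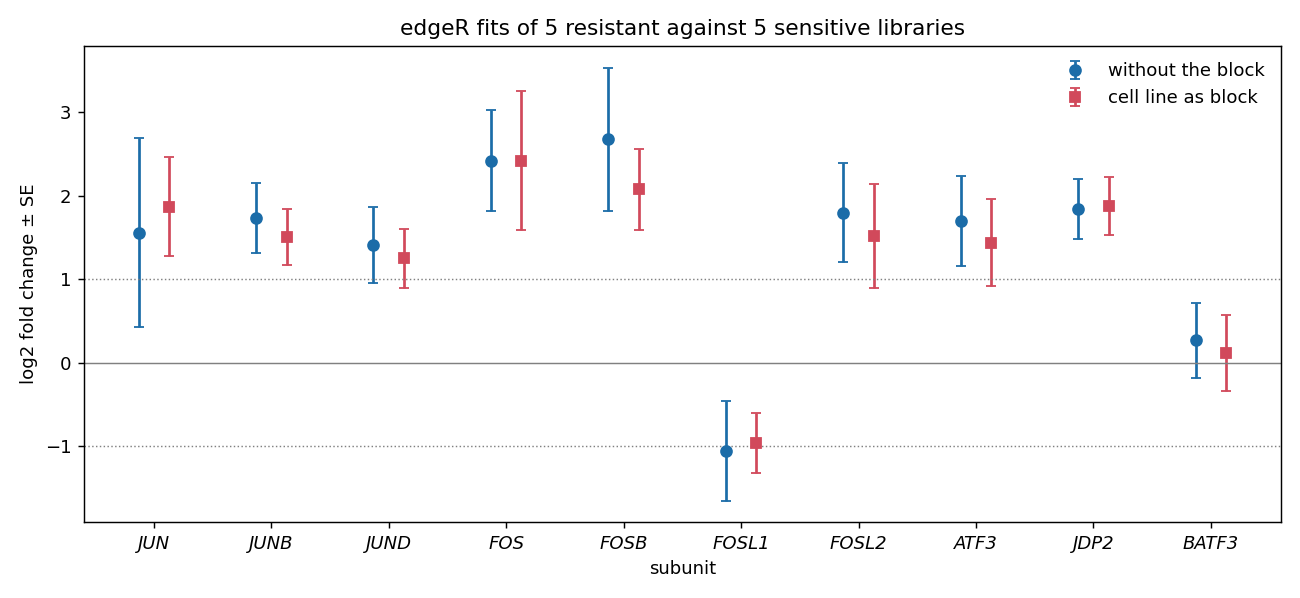
Log2 fold change of each subunit between 5 resistant and 5 sensitive libraries, with its standard error, from edgeR without a block (circles) and with cell line as a block (squares). Dotted lines mark 2-fold, and JUN is the gene whose error shrinks most with the block, from 1.13 to 0.591.

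Exact permutation of single genes gave an unadjusted p of at most 0.05 for 3 subunits, JUNB (p = 0.0397), FOS and JDP2, and 0.0556 to 0.0873 for JUND, FOSB, FOSL2 and ATF3, which the fit across all genes called and this test did not. The permutation takes no account of the pairing by line, and JUND and FOSB were higher in all 5 pairs. In the WM1617 pair the counting intervals of both held 0, at -0.04 to 0.34 for JUND and -0.24 to 1.12 for FOSB. No gene other than these 7 was under 0.206.

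Read line by line, the subunits fell into patterns. In WM983A, 9 subunits were at least 2-fold higher and 1 at least 2-fold lower, beside 16.9% and 19.3% of all genes. WM983B had 8 higher and 0 lower, beside 16.2% and 11.2%. WM278 had 6 higher and 1 lower, beside 12.1% and 7.00%. WM902B had 5 higher and 1 lower, beside 15.4% and 12.0%. WM1617 had 0 in either direction, beside 2.83% and 3.80%, and it was also the pair with the most similar profiles (r = 0.984). Median log2 ratios over the subunits were 1.80, 2.40, 1.61, 0.12 and 1.04, where those of all genes lay between -0.01 and 0.03. These ratios rest on 1 library per state and have no replicate check.

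JUNB, JUND, FOS, FOSB and JDP2 were higher in all 5 lines, as were 5.77% of all genes, and none was lower in all 5, as were 5.30%. For JUND and FOSB the counting interval in WM1617 held 0. JUNB, ATF3 and JDP2 were at least 2-fold higher in 4 lines, as were 1.72%. JUN and FOSL2 were 5-fold or more higher in WM983A, WM983B and WM902B, with log2 ratios of 2.35 to 3.06, the lines whose SOX10 was 12.6 CPM or less in the resistant state. In WM278, with SOX10 at 274 CPM, their log2 ratios were 0.57 and 0.00, against 5.47 for FOS, 3.12 for FOSB and 1.61 for JUND. WM902B showed the opposite, with 3.06 for JUN and 2.54 for FOSL2 against 0.95, 0.99 and 0.46 for FOS, FOSB and JUND. This grouping was chosen after the values were seen and was not tested. MITF did not split the lines in the same way. It was at 34.3, 36.9 and 220 CPM in resistant WM983A, WM983B and WM902B, at 14.5 CPM in WM278 and at 528 CPM in WM1617. The JUN level, unlike its ratio, was highest in WM278 in both states, at 309 and 459 CPM.

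**Figure D3:**
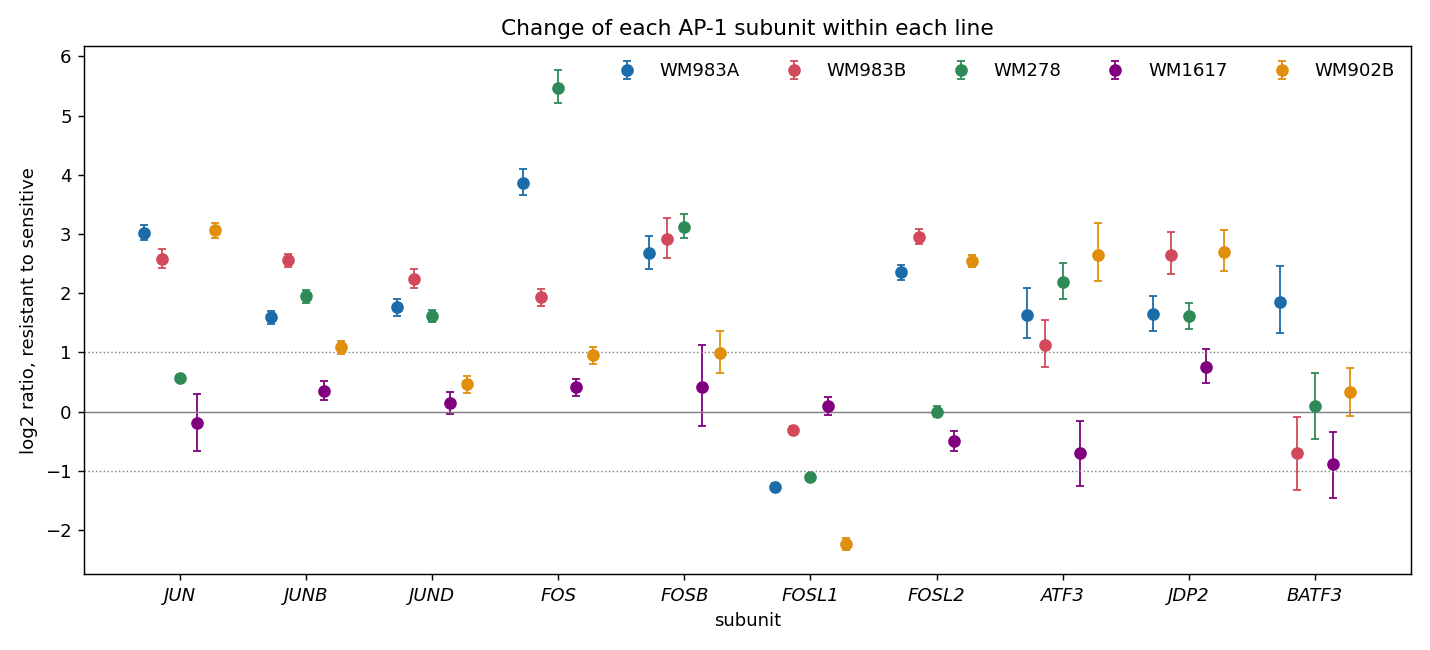
Resistant to sensitive log2 ratio of every subunit in each line (points) with 95% intervals for counting error (bars). The solid line marks no change and dotted lines 2-fold. WM1617 points lie nearest to 0 for most subunits, and JUN and FOSL2 separate WM983A, WM983B and WM902B from WM278 and WM1617.

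To compare subunits with each other, counts were divided by merged exon length and scaled to the same total in every library (TPM-like levels). This scale holds no TMM scaling, so changes between states, also those of summed levels, can differ from those in CPM. In WM983A, JUN went from 37.4 to 234 on this scale and from 37 to 301 in CPM. Merged exons join those of all annotated transcripts of a gene, so shares, ranks and ratios between genes depend on this choice of length. On this scale FOSL1 was the most abundant subunit in all 5 sensitive libraries, at 73, 67.1, 58.2, 26.9 and 62.1% of the summed subunit level. In the resistant libraries its share was 19.5, 23.5, 18.5, 25.3 and 10.2%, and it led in none. JUNB led in resistant WM983A (22.4%), WM983B (37.6%) and WM1617 (27.5%), and JUN led in resistant WM278 (21%) and WM902B (27.3%). The JUN, JUNB and JUND share went from 21.8 to 55.8%, from 23.5 to 57.2%, from 35.7 to 56.5%, from 43 to 45.1% and from 26.8 to 59.2%. Except in WM1617, FOSL1 thus made up most of the subunit transcripts in the sensitive library and the JUN family most in the resistant one.

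The ratio of FOS to FOSL1 on the per-length scale was 0.0189, 0.073, 0.00883, 0.646 and 0.0811 in the sensitive libraries. The resistant libraries gave 0.668, 0.345, 0.852, 0.8 and 0.74. Sensitive WM1617 was thus within the range of the resistant libraries. The summed level of the 10 subunits went from 1047 to 1252, from 777 to 1984, from 1398 to 2137, from 293 to 334 and from 815 to 1068 TPM-like units, being higher in the resistant library of every line and lowest in WM1617 in both states.

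**Figure D4:**
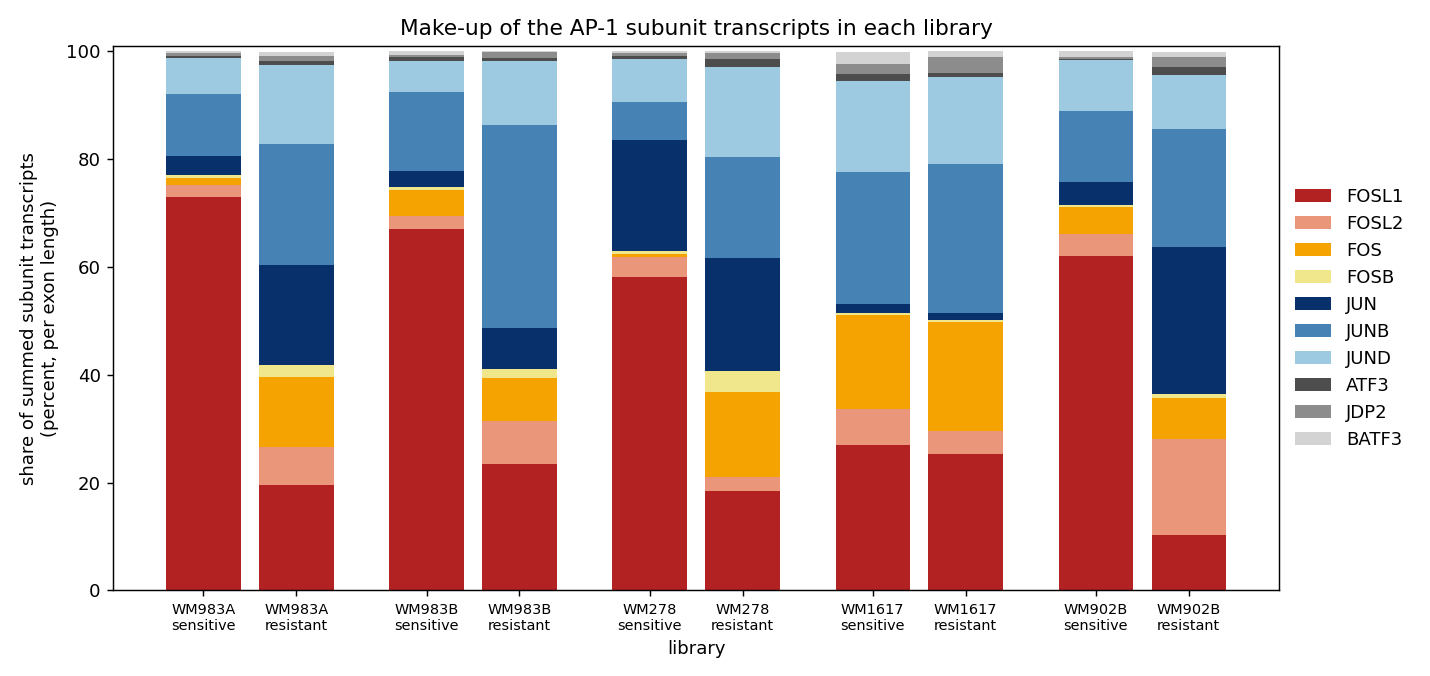
Share of each subunit in the summed level of the 10 subunits (percent, levels divided by exon length) in each of the 10 libraries. FOSL1 takes 58.2 to 73% in 4 sensitive libraries and 10.2 to 25.3% in the resistant ones, and the WM1617 pair is alike.

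By mean log2 per-length level, the order in the sensitive group was FOSL1, JUNB, JUND, JUN, FOSL2, FOS, BATF3, JDP2, ATF3 and FOSB. FOSL1 exceeded JUNB by 2.05 on the log2 scale (SD 1.13 over 5 libraries), and FOS exceeded BATF3 by 2.17 (SD 0.91). JUNB exceeded JUND by 0.60 (SD 0.55), while the other neighbours differed by less than their spread. In the resistant group the order was JUNB, FOSL1, JUND, FOS, JUN, FOSL2, JDP2, FOSB, ATF3 and BATF3. FOSL1 exceeded JUND by 0.44 (SD 0.38) and FOSL2 exceeded JDP2 by 2.13 (SD 1.22), and no other neighbours differed beyond their spread.

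Over the 10 libraries, which are 5 pairs and share their lines, log2 levels of JUND and FOSB correlated at r = 0.969 and those of JUNB and FOSB at 0.873. Such values mix differences between lines with those between states. The genes outside the subunits with the highest r were IGFBP6 (0.966), MICAL2 (0.964) and RP11-78I14.1 (0.962) for JUN. For JUNB they were TSC22D3 (0.97), C2orf82 (0.959) and TMEM9B-AS1 (0.95). PEX11G and LINC00641 headed the list of both JUND (0.976 and 0.956, then HIST1H3E at 0.953) and FOSB (0.973 and 0.965, then ORMDL3 at 0.965). FOS was followed by IFT27 (0.914), DUSP1 (0.911) and RP11-420A23.1 (0.906), and FOSL1 by ERCC3 (0.927), BRPF1 (0.926) and URM1 (0.924). BASP1 (0.965), MVP (0.954) and MYLK (0.946) came first for FOSL2. ABHD4 (0.953), LRRC27 (0.943) and C3 (0.938) did so for ATF3, and NPIPA8 (0.955), INO80B-WBP1 (0.955) and ZNF846 (0.952) for JDP2. These values are the highest of 17287 genes over few libraries and describe likeness only.

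Genes around AP-1 were counted by the rule used for the subunits, at 2-fold and before adjustment. Among 12 other immediate early genes, 3 rose and 1 fell (median log2 fold change 0.40). DUSP1, a phosphatase that switches off JNK and p38, rose 2.54 on the log2 scale (SE 0.55) and was higher in 5 of 5 lines. ZFP36, which destabilises cytokine mRNAs, rose 2.45 (SE 0.647), and EGR1, a zinc finger factor induced by ERK, rose 1.56 (SE 0.607), a call that was lost with the block. NR4A1, an orphan nuclear receptor named after its value was seen, fell by 1.51 (SE 0.59).

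None of the 15 tested genes of the JNK branch and the kinases of AP-1 was called in either direction (median 0.02). The largest changes there were those of RPS6KA5 (log2 fold change -0.96, SE 0.6) and RPS6KA1 (-0.81, SE 0.279), kinases downstream of ERK. With the block 2 were called lower, RPS6KA5 (-1.18) and MAP3K1 (-1.02), the latter named after its value was seen. Nor was any of 9 genes for SRF and its partners called (median -0.04), with ELK3 and MEF2C both at -0.47 (SE 0.445 and 0.626). Of 4 ubiquitin ligase components that degrade JUN none was called, FBXW7 having 0.50 (SE 0.317) and RFWD2 (COP1) -0.24 (SE 0.256).

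Of 15 other leucine zipper partners 0 rose and 1 fell (median 0.24), namely MAFF, a small MAF protein, by 1.33 (SE 0.565), lower in every line. Of 16 textbook AP-1 target genes 12 were tested, 1 rose and 1 fell, with a median of -0.56. Among those not tested, PLAU, named after its value was seen, was at most 0.535 CPM in the sensitive libraries. In the resistant ones PLAU had a median of 2.89 and a maximum of 226 CPM, and it was higher in 4 lines. The others not tested, MMP3, MMP10 and MMP13, reached at most 3.93 CPM. IL6, a cytokine, rose 4.87 on the log2 scale (SE 1.53) from 0.134 to 2.95 CPM in the sensitive libraries to between 0.0573 and 96.8 CPM in the resistant ones. PLAUR, the urokinase receptor, fell by 1.82 (SE 0.554). With the block CXCL8, a chemokine named after its value was seen, was called lower as well (-2.20).

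The 7 heat shock genes, taken as markers of handling stress, summed to 4030 to 7145 CPM in the sensitive and 1989 to 7212 CPM in the resistant libraries. None was called (median -0.34), with HSPH1 at -0.67 (SE 0.399) and HSPA8 at -0.60 (SE 0.296), both lower in every line. The 8 melanocyte genes summed to 429 to 4501 CPM in the sensitive and 89.6 to 4429 CPM in the resistant libraries. Of these 1 was called, TYRP1 (-5.21, SE 1.81), whose call was lost with the block (-1.71). TYRP1 had a median of 1.07 and a maximum of 247 CPM in the sensitive libraries, and at most 2.7 CPM in the resistant ones. It was higher in the resistant state in 2 lines. With the block 1 was called as well, TYR (-3.92), the rate-limiting enzyme of melanin synthesis, named after its value was seen, and the median of the list went from -1.19 to -3.34. Of the 5 leukocyte genes only CD68 passed the filter (0.15, SE 0.79), and none of 3 endothelial and 4 keratinocyte genes did.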

How the data were processed

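Messenger RNA selected with oligo-dT was sequenced from 10 libraries as single-end reads. Alignment by the authors was to GRCh38, using HISAT2, as the submitters' processing notes also list, and genes were quantified in StrandNGS. Annotation, versions, strand setting and treatment of shared reads are not given in the sources used here. The raw values deposited are expected counts per gene, many of them not whole. The normalized values the authors deposited are log2 ratios to the sensitive library of the line, and were used only to recover 455 raw values of the sensitive WM983B library that had been turned into dates. All 455 fitted the digits still visible, and no subunit was among them.

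For testing, expected counts were rounded to whole numbers. The tests ran in R 4.3.3, using edgeR 4.0.16 (filterByExpr, TMM, glmQLFit and glmQLFTest, 5 against 5 libraries, no block), with limma 3.58.1 and DESeq2 1.42.0 as alternatives, and in Python 3.11.15 with scipy 1.17.1. Genes were called at 2-fold and an unadjusted p of at most 0.05, and separately after Benjamini-Hochberg adjustment over 17287 genes. Standard errors follow from the fold change and its quasi-likelihood F. All tests were two-sided, and exact permutations used log2(normalized count + 1), and correlations log2(CPM + 1). Per-length levels used GENCODE v44 merged exons, which covered 98.2% of genes. Counting intervals (95%) cover counting error only.

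A resistant line shares its cells with the sensitive line of the same name, so the pairing comes from the cell line. Deviations of pairs from their group means correlated at -0.0826 in WM983A and 0.35 to 0.671 in the other lines.

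The subunits, the other 11 gene lists and the tests were chosen with earlier results of these data known. All subunits were named. From other lists the text names up to 3 called genes of smallest p or, with none called, the 2 of largest change, and for likeness the 3 genes of highest r. Outside this rule, the check of identity names MITF, SOX10, CDH1, EPCAM and leukocyte genes, none of them called. Naming SOX10, CDH1 and EPCAM was not part of the plan. Alternatives were other normalizations, filters and tools, the block, and leaving out each library or line. Blocked limma and DESeq2 fits and blocked fits without each line were added after seeing the data.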

Additional observations from a re-analysis of the deposited data

Results flagged for a closer look

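Of 20 groups of 5 libraries examined, 2 for each subunit, 3 held a library far from the rest, and chance marks about 1 in 20 such groups. All 3 were WM1617. Its gap to the nearest other library, as a share of the range of the group on the log2 scale, was 0.741 for JUN in the resistant group, 0.716 for JUNB in the sensitive group and 0.783 for FOSL1 in the sensitive group, above the limit of 0.71 for 5 samples, and each time WM1617 was the lowest.

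The BATF3 ratios had opposite signs by tumour of origin. Its log2 ratio was 1.85, 0.10 and 0.33 in the lines from primary tumours (WM983A, WM278 and WM902B) and -0.69 and -0.88 in those from metastases (WM983B and WM1617), a difference between means of 1.54. This difference was not tested, and the counting intervals of WM278 and WM902B hold 0.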

How the results depend on the processing

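Between 6 and 8 subunits were called at unadjusted p under every alternative without a block, 7 to 8 when single libraries and 6 to 8 when single lines were left out, FOSL1 being called lower without sensitive WM1617 or the WM1617 line and all others higher. With the replicate block, which uses the pairing by line, 8 were called higher, and 4 to 9 were called when each line was also left out. The 4 without WM983B were 3 higher (JUNB, FOSB and JDP2) and 1 lower (FOSL1), and the 9 without WM1617 were 8 higher and 1 lower (FOSL1). After adjustment edgeR and limma called 0 in every fit, with or without any library or line (0 to 0), whereas DESeq2 called 3 and DESeq2 with the replicate block 6. JUNB, JUND and JDP2 kept p of at most 0.05 in all 29 alternatives. JUND was under 2-fold in the blocked fit without WM983B (log2 fold change 0.99). FOSB lost it in 1, limma-voom (1.99), and FOS in 2, the blocked fits without WM983A (1.96) and without WM983B (2.60). ATF3 lost it in 4, the blocked fits without WM983A, WM983B, WM278 or WM902B (1.13 to 1.52). FOSL2 lost it in 5, without WM983B or WM902B, and with the block also without WM983A (1.10 to 1.53). JUN gained it in 8, among them the fit without the sensitive WM278 library (3.22), and FOSL1 in 7, among them the fit without the sensitive WM1617 library (-1.34). BATF3 turned from 0.27 to -0.02 without the resistant WM983A library, to -0.16 without both WM983A libraries and to -0.28 without them and with the block, and reached 0.49 without both WM1617 libraries. The cause of these shifts was not tested. The counts of 2-fold changes within lines stayed within 1.5 times their value under the other normalizations, and the FOSL2 log2 ratio in WM278 ranged from -0.01 to 0.09. With 1 library per line and state, lines are the only replicates, and p-values treat them as independent although 2 pairs share a patient. At these depths 3 counts correspond to 0.172 to 0.23 CPM, below every subunit level.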

Other observations

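DUSP6, an ERK phosphatase whose transcript follows ERK output, and FOSL1 can be set side by side, a choice made after the values were seen. The log2 ratio of DUSP6 was -3.65, -1.74, -1.08, -0.31 and -4.09 in WM983A, WM983B, WM278, WM1617 and WM902B, where that of FOSL1 was -1.27, -0.31, -1.11, 0.10 and -2.24. DUSP6 was lower in all 5 resistant lines, and both genes had their smallest change in WM1617 and their largest decrease in WM902B. WM983B and WM278 stood in opposite order for DUSP6 and FOSL1, and in WM1617 FOSL1 was not lower. EGR1, named above as induced by ERK, had log2 ratios of 1.65, 2.74, 1.57, -0.60 and -0.31 in these lines. A link of these values to ERK output was not tested. Over the same lines the log2 ratio of DUSP1 was 4.61, 2.57, 3.31, 0.08 and 1.80, and that of FOS was 3.86, 1.93, 5.47, 0.41 and 0.95.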
